A study of Mus musculus with 10 samples.

Results

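Enteric neuron and glia genes are a set of 36 genes that mark the nervous system of the gut wall, its glial cells, and the pacemaker cells that lie beside them. They were chosen by name and matched to the gene symbols of the array, with the brightest probe set kept where a gene had several. Of the 36 genes, 35 had a named probe set, out of 19505 genes measured in all, and Elavl2 was not analysed here. By role, 11 measured members code for neuronal structure and transmitter release, 10 for transmitters and peptides, 3 for regulators of neural crest development, 6 for glial proteins, 3 for adhesion molecules and 2 for markers of interstitial cells of Cajal.

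Complete colon tissue of wild-type C57BL/6 mice was profiled on 10 arrays. In 5 samples (ECP arrays) the mice had received 3% dextran sulfate sodium (DSS) in drinking water, anti-PD1 by intraperitoneal injection and donor cells treated with ECP (extracorporeal photopheresis, a treatment of white blood cells with a light-activated drug and ultraviolet light). In 5 samples (control arrays) the mice had received DSS and anti-PD1 alone, so both groups had received DSS. No measure of colitis and no untreated colon was analysed here. DSS damages the lining of the colon, and anti-PD1 blocks an inhibitory receptor of T cells. The labels give no age, do not say whether each array is a separate mouse, and do not describe the donors. All values are log2 intensities, in which a difference of 1 is a doubling, and errors are SD over 5 arrays unless stated.

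The enteric nervous system forms networks of neurons and glia between the muscle layers and under the mucosa. Its excitatory motor neurons use acetylcholine, and its inhibitory motor neurons use nitric oxide and vasoactive intestinal peptide. Its neurons and glia come from neural crest cells that need the receptor Ret and the transcription factor Sox10. Interstitial cells of Cajal, which express Kit and the chloride channel Ano1, set the rhythm of the muscle. Noradrenaline-making enzymes in the gut wall belong mostly to nerve fibres whose cell bodies lie outside it.

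The members' probe sets differed in brightness, and 14 of the 35 lay above the median of all genes by mean level, among them 5 of 21 neuronal and 2 of 6 glial members. Sox10, S100b, Cdh19 and Foxd3 lay below it. No detection calls were analysed here, so the presence of a weak transcript, glial or neuronal, cannot be judged from these values. Levels were compared between arrays only. Pancreatic acinar transcripts, from a list of which 13 of 15 genes were measured, stood high in control replicates 1 and 4, and all 13 had a lower mean in the ECP arrays. The mean acinar level was 5.53 to 5.75 in the ECP arrays, against 10.17, 5.85, 5.72, 12.00 and 6.47 in control replicates 1 to 5. The mean level of 15 smooth muscle genes was lowest in the same arrays, at 9.73 to 10.19 in the ECP arrays and 9.20, 9.87, 10.04, 9.56 and 9.96 in control replicates 1 to 5. Many results below are therefore also given without control replicates 1 and 4. In whole tissue, fewer cells of a type and less RNA per cell cannot be told apart.

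No member passed the threshold of 0.05 after Benjamini-Hochberg adjustment over all genes (limma), and neither did any other gene (0 of 19505, 0%). At an unadjusted p under 0.05 there were 3 members of 35 (8.57%), namely Ncam2, Uchl1 and Penk, all higher in the ECP arrays, where 5.08% of all genes lay under that value, 2.31% with a higher and 2.77% with a lower ECP value. In direction and without a test, 26 members had higher means in the ECP arrays and 9 had lower ones, and 53.3% of all genes had higher ones. The median difference was 0.05 over the 35 members and 0.01 over all genes. Groups did not overlap for 1 member, Ncam2, against 1.22% of all genes in either direction and 0.39% in the direction of higher ECP values.

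**Figure D1:**
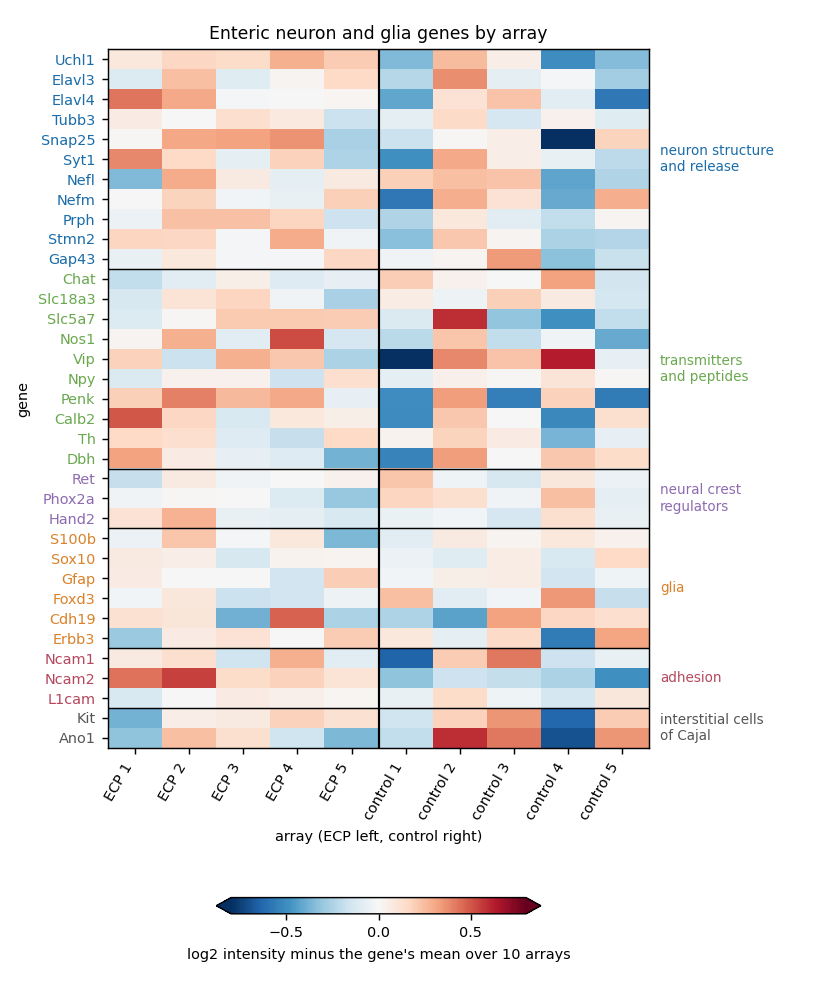
Log2 intensity of the 35 measured genes (rows, by role) on each array (columns, ECP left of control), as the difference from each gene's mean over 10 arrays, with colours saturated beyond 0.8 in either direction. Uchl1, Elavl4, Syt1, Stmn2 and Penk are low in control replicate 1 and in other control arrays, Ncam2 is above its mean in all 5 ECP arrays, and the glial rows follow no such order.

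Ncam2 codes for a neural cell adhesion molecule of the immunoglobulin family. Its level was 6.48, 6.59, 6.19, 6.23 and 6.15 in ECP replicates 1 to 5, against 5.72, 5.88, 5.85, 5.79 and 5.55 in control replicates 1 to 5. Every ECP array lay above every control array. The difference was 0.57 (SE 0.10, 95% interval 0.35 to 0.79, limma adjusted p = 0.106). Leaving out single arrays gave 0.50 to 0.61, and leaving out control replicates 1 and 4 gave 0.57 (adjusted p = 0.421). With Myh11, a muscle gene, as a covariate, the difference was 0.55 (adjusted p = 0.392). The groups overlapped for the other adhesion genes. Ncam1, another adhesion molecule of the family, averaged 8.20 ± 0.18 in ECP arrays and 8.10 ± 0.40 in control arrays, a difference of 0.10 (SE 0.17) that was -0.14 without control replicates 1 and 4. L1cam, an axonal adhesion molecule, averaged 9.93 ± 0.07 in ECP arrays and 9.93 ± 0.12 in control arrays, and its interval for the difference ran from -0.15 to 0.16.

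Genes of neuronal structure and transmitter release were on the higher side in the ECP arrays. All 11 measured members had a positive difference, from 0.00 for Nefl to 0.35 for Uchl1, with a median of 0.16, and 1 of the 11 (9.09%) had an unadjusted p under 0.05, where 53.3% of all genes had a positive difference and 5.08% such a p. The 15 smooth muscle genes also all had a positive difference, with a median of 0.25. The part of muscle tissue in the neuronal differences was not tested. Without control replicates 1 and 4 the differences of Nefl (-0.07), Nefm (-0.18) and Gap43 (-0.03) were negative. The neuronal genes with a positive difference, transmitter genes included, then numbered 12 of 21, against 17 of 21 with all arrays. Uchl1 codes for the ubiquitin hydrolase PGP9.5, a general marker of nerve cells. Its level was 7.09, 7.17, 7.15, 7.29 and 7.21 in ECP replicates 1 to 5, against 6.65, 7.26, 7.06, 6.51 and 6.66 in control replicates 1 to 5. The ECP arrays lay close together, and the control arrays fell into a pair within the ECP range or just under it and 3 arrays clearly below. The difference was 0.35 (SE 0.13, limma adjusted p = 0.862), and it was 0.19 without control replicates 1 and 4. The 3 low arrays for Uchl1 were the 3 control arrays with the highest acinar levels (r = -0.85, rho = -0.72 over 10 arrays, and r = -0.90, rho = -0.45 over the 8 arrays left without control replicates 1 and 4). Of the 3 low arrays, control replicate 5 had a far lower acinar level, 6.47, than control replicates 1 and 4, at 10.17 and 12.00. Uchl1 also varied with the mean of 8 adipocyte genes (r = 0.42, rho = 0.48, and r = 0.74, rho = 0.60 over 8 arrays). That mean was lowest in control replicate 5, at 5.91, against 6.30 to 7.27 in the ECP arrays. The part of acinar or adipose tissue in the Uchl1 difference was not tested.

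Stmn2, a microtubule regulator of growing axons, followed the same order. It was at 8.10, 8.09, 7.91, 8.22 and 7.90 in ECP replicates 1 to 5, against 7.59, 8.14, 7.95, 7.67 and 7.69 in control replicates 1 to 5. Again control replicates 1, 4 and 5 lay below every ECP array, and the difference was 0.24 (SE 0.11, adjusted p = 0.989). Elavl4, a neuronal RNA-binding protein gene, measured 4.95, 4.83, 4.51, 4.52 and 4.54 on the ECP arrays, against 4.11, 4.64, 4.75, 4.44 and 3.95 on the control arrays. Its difference was 0.29 (SE 0.16), and the related Elavl3 differed by 0.09 (SE 0.12). The release machinery genes Snap25, a membrane fusion protein, and Syt1, the calcium sensor of synaptic vesicles, differed by 0.30 (SE 0.18) and 0.16 (SE 0.15). Snap25 was lowest in control replicate 4, at 5.91 against 6.47 to 7.09 in the ECP arrays and 6.56 to 6.91 in the other control arrays, and its difference was 0.13 without that array. Without control replicates 1 and 4 the differences were 0.12 for Stmn2, 0.07 for Snap25 and 0.03 for Syt1.

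Neurofilament and cytoskeletal genes had differences of 0.00 to 0.17. Prph, an intermediate filament of peripheral neurons, differed by 0.17 (SE 0.10), or 0.08 without control replicates 1 and 4, Nefm by 0.11 (SE 0.16) and Nefl, the light neurofilament, by 0.00 (SE 0.15). Nefm turned to -0.18 without control replicates 1 and 4, and it measured 4.90 and 5.07 in those arrays, against 5.41 to 5.66 in the ECP arrays and 5.59 to 5.76 in the other control arrays. Tubb3, a neuronal tubulin, averaged 7.61 ± 0.12 in ECP arrays and 7.56 ± 0.12 in control arrays. Gap43, a growth cone protein gene, averaged 6.31 ± 0.09 in ECP arrays and 6.25 ± 0.25 in control arrays. Their intervals ran from -0.13 to 0.22 for Tubb3 and from -0.18 to 0.30 for Gap43.

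**Figure D2:**
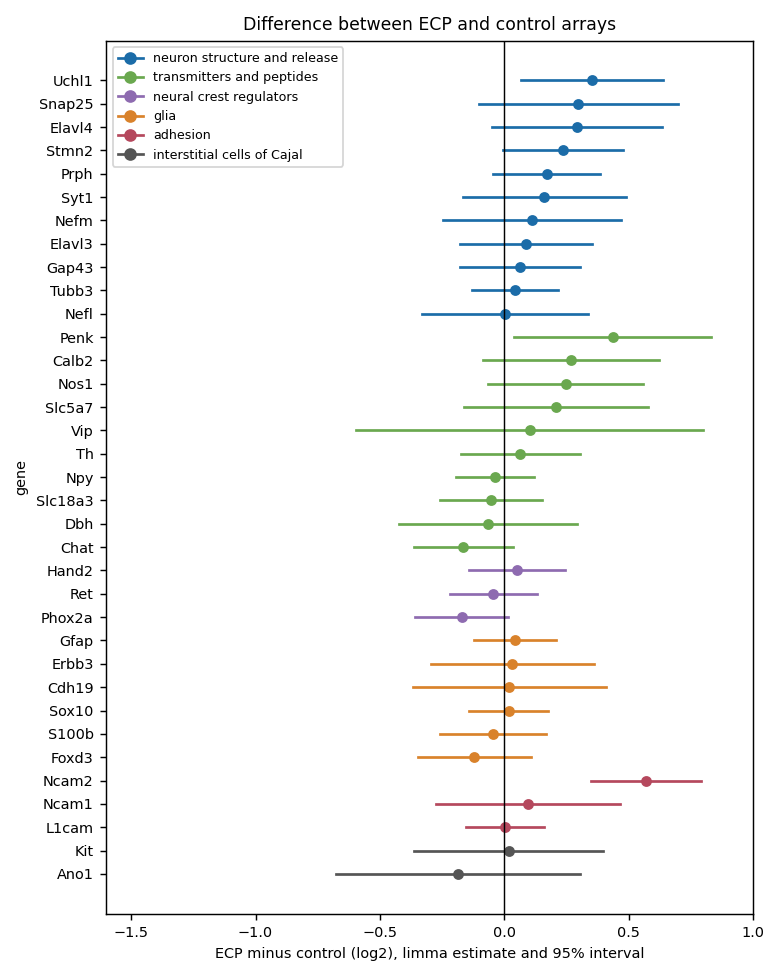
Difference between ECP and control arrays (log2, horizontal axis) for the 35 genes, with dots for limma estimates and lines for 95% intervals, coloured by role. Ncam2, Uchl1 and Penk have intervals above 0, and none of the 35 passes the threshold after adjustment over all genes.

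Transmitter and peptide genes were mixed, with 6 of 10 with higher and 4 of 10 with lower means in ECP arrays and a median difference of 0.08. Of all genes 53.3% had a higher mean. Among cholinergic genes, Chat, the enzyme that makes acetylcholine, averaged 3.77 ± 0.09 in ECP arrays and 3.94 ± 0.18 in control arrays, a difference of -0.16 (SE 0.09). Slc18a3, which loads acetylcholine into vesicles, differed by -0.05 (SE 0.09), and Slc5a7, which takes up choline, by 0.21 (SE 0.17). Chat was highest in control replicates 1 and 4, at 4.05 and 4.18, and Slc5a7 was highest in control replicate 2, at 5.83 against 5.13 to 5.45 in the ECP arrays. These 3 genes of one pathway thus had differences of both signs, none of them past the threshold. All 3 lay below the median of all genes by mean level, and the lowest value in the whole data was 2.81. Weak probe sets therefore limit what their signs can show. Chat ran with the acinar level (r = 0.86, rho = 0.62, and r = -0.21, rho = 0.26 over the 8 arrays without control replicates 1 and 4). The part of acinar tissue in the Chat difference was not tested. The differences were -0.05 for Chat and 0.08 for Slc5a7 without control replicates 1 and 4.

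Among inhibitory transmitter genes, Nos1, the neuronal nitric oxide synthase, averaged 6.82 ± 0.28 in ECP arrays and 6.57 ± 0.23 in control arrays, a difference of 0.25 (SE 0.14). Vip, which codes for vasoactive intestinal peptide, was at 7.93, 7.57, 8.03, 7.96 and 7.49 in ECP replicates 1 to 5, against 6.30, 8.13, 7.97, 8.37 and 7.68 in control replicates 1 to 5. Control replicate 1 lay far below every other array, and control replicate 4 above them all. The difference was 0.10 (SE 0.32) with all arrays and -0.25 without control replicate 1. Vip therefore stood at opposite ends in the 2 arrays with the most acinar transcripts.

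Penk, the precursor of enkephalins, which are opioid peptides that slow gut movement, had the largest difference of the transmitter genes. It was at 9.32, 9.53, 9.39, 9.43 and 9.06 in ECP replicates 1 to 5, against 8.63, 9.46, 8.58, 9.31 and 8.57 in control replicates 1 to 5. Control replicates 2 and 4 lay inside the ECP range, and control replicates 1, 3 and 5 below it. The difference was 0.44 (SE 0.18, 95% interval 0.04 to 0.83, limma adjusted p = 0.939), and it was 0.48 without control replicates 1 and 4. Calb2, the calcium-binding protein calretinin of several enteric neuron types, differed by 0.27 (SE 0.16), or 0.02 without control replicates 1 and 4, and Npy, neuropeptide Y, by -0.04 (SE 0.07). The noradrenaline pathway genes Th and Dbh, which code for tyrosine hydroxylase and dopamine beta-hydroxylase, differed by 0.06 (SE 0.11) and -0.07 (SE 0.16), or -0.03 and -0.20 without control replicates 1 and 4.

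**Figure D3:**
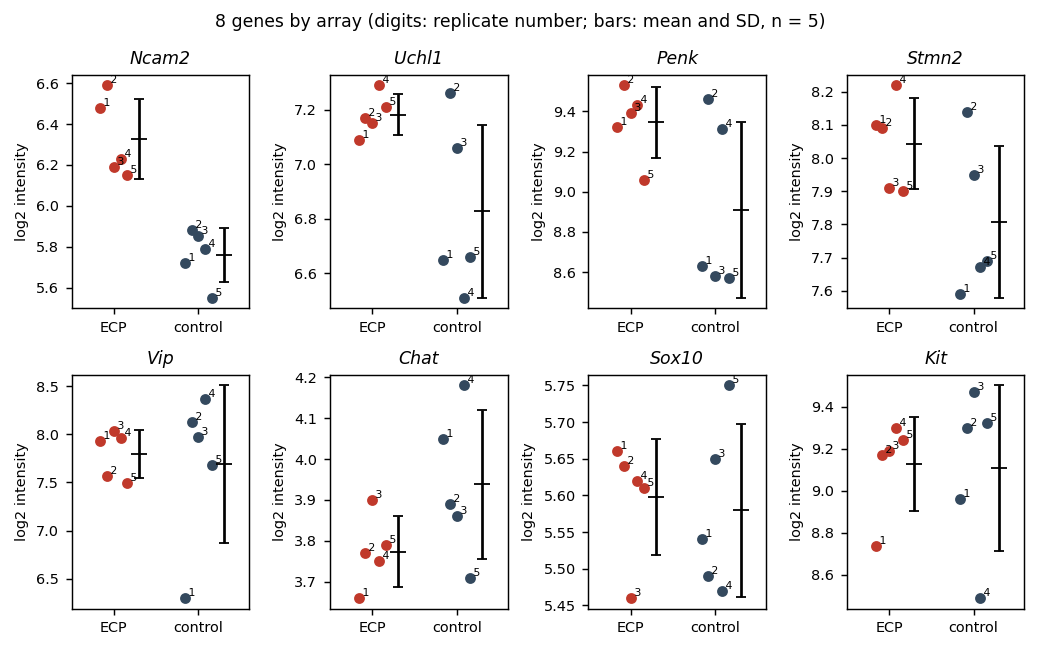
Log2 intensity of 8 genes on each array, ECP left of control, with digits for the replicate number and bars for mean and SD (n = 5), each panel on its own scale. For Ncam2 the groups lie apart, for Uchl1, Penk and Stmn2 some control arrays lie inside and some below the ECP range, and for Vip, Chat, Sox10 and Kit the groups overlap.

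For reference, the 250 bases before the transcription start of 3 members are given, in RefSeq's table for build GRCm38.p6 and 5′ to 3′. Ncam2 was chosen as the member whose groups did not overlap, Uchl1 as the neuronal gene with the smallest p, and Vip for its wide spread in the control arrays, all after their values were seen. Each lies upstream of its gene in the table's annotation, and capitals mark CG dinucleotides.
Ncam2 (GRCm38.p6, chr16:81200447-81200696, plus strand): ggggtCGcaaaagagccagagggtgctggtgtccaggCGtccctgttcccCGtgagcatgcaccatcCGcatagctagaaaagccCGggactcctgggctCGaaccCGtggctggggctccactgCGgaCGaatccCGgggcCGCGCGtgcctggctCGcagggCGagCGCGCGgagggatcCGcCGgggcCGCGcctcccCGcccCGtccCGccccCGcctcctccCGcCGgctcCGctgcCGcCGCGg
Uchl1 (GRCm38.p6, chr5:66675871-66676120, plus strand): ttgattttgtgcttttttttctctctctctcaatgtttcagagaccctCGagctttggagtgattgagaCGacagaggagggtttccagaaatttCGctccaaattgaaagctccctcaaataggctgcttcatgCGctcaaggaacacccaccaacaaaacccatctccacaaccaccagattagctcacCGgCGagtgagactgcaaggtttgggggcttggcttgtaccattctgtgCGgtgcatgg
Vip (GRCm38.p6, chr10:5638968-5639217, plus strand): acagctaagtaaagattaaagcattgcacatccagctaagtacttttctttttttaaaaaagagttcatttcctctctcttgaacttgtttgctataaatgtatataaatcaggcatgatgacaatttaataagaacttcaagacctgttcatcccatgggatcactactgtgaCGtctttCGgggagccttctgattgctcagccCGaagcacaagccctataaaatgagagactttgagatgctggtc
The Ncam2 sequence holds 32 CG dinucleotides, a number reached by 4.39% of all 27025 promoters in the table, against 7 in Uchl1 (reached by 46.5%) and 3 in Vip (reached by 70.4%). The letters TATAAA and TGACG, the core of a cyclic AMP response element, were searched on both strands, where each TGACG also contains a CG. TATAAA occurred 3 times in Vip, with first bases 157, 147 and 30 bases before the start, and TGACG 1 time, 79 bases before it. Neither was found in the Ncam2 or Uchl1 sequence. Of all promoters 13% hold TATAAA and 17.9% hold TGACG, and of the 24 members with an entry 16.7% and 37.5% do. These are descriptions of the sequence, and nothing in the arrays bears on which factors bound there.

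None of the 3 regulators of neural crest development passed the test. Ret, the receptor for the growth factor GDNF, averaged 8.10 ± 0.10 in ECP arrays and 8.15 ± 0.14 in control arrays. Phox2a, a transcription factor of autonomic neurons, averaged 7.02 ± 0.13 in ECP arrays and 7.19 ± 0.13 in control arrays, and the estimate of -0.17 had an SE of 0.09 (limma, adjusted p = 0.996). It was -0.09 without control replicates 1 and 4. Hand2, a transcription factor needed for enteric neurons and present in other mesenchymal cells too, differed by 0.05 (SE 0.09). Ret and Phox2a were both highest in control replicate 1 or 4, at 8.35 for Ret in control replicate 1 and 7.34 for Phox2a in control replicate 4.

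Glial genes showed differences between -0.12 and 0.04, with 4 of 6 with higher and 2 of 6 with lower means in ECP arrays and a median of 0.02. A higher mean was found for 53.3% of all genes. Sox10, the transcription factor of enteric glia and their precursors, was at 5.66, 5.64, 5.46, 5.62 and 5.61 in ECP replicates 1 to 5, against 5.54, 5.49, 5.65, 5.47 and 5.75 in control replicates 1 to 5. The groups overlapped, and the interval for the difference ran from -0.14 to 0.18. S100b, a calcium-binding glial protein gene, differed by -0.05 (SE 0.10), and Gfap, the glial intermediate filament that astrocytes and reactive glia make, by 0.04 (SE 0.08), with an interval from -0.12 to 0.21. Foxd3, a neural crest transcription factor, differed by -0.12 (SE 0.10) and the cadherin gene Cdh19 by 0.02 (SE 0.18). Foxd3 was highest in control replicates 1 and 4, at 7.08 and 7.19 against 6.67 to 6.93 in the ECP arrays, and without those 2 arrays its difference was 0.03.

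Erbb3, the neuregulin receptor of glial precursors, is also made by gut epithelium. It averaged 9.76 ± 0.19 in ECP arrays and 9.73 ± 0.33 in control arrays. Across the 10 arrays it varied with the mean level of 12 epithelial genes (r = 0.89, rho = 0.67, and r = 0.72, rho = 0.57 without control replicates 1 and 4). It ran against the mean of 8 B cell genes (r = -0.89, rho = -0.64, and r = -0.75, rho = -0.50 over 8 arrays). With 8 NK and T cell genes it had r = -0.84 and rho = -0.49 (-0.56 and -0.43 over 8 arrays). With 6 monocyte and macrophage genes the values were r = -0.79 and rho = -0.81 (-0.91 and -0.88 over 8 arrays). The part of any cell type in the Erbb3 values was not tested. Of the 15 pairs of glial members, 0 had a correlation of 0.6 or more over 10 arrays and 1 had over the 8 arrays (6.67%), where 5.26% and 6.29% of all pairs of genes did. With 15 pairs, these counts are near the share over all genes. Sox10 and S100b, for example, had r = 0.02 and rho = -0.02.

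Neuronal and glial genes were compared through their mean level on each array, centred on each gene's mean. The neuronal level, over 21 genes, was 0.07, 0.15, 0.06, 0.09 and -0.03 in ECP replicates 1 to 5, against -0.28, 0.21, 0.01, -0.14 and -0.14 in control replicates 1 to 5. The glial level, over 6 genes, was -0.02, 0.09, -0.10, 0.05 and -0.04 in the ECP arrays, against -0.01, -0.09, 0.10, -0.04 and 0.07 in the control arrays. For neurons the lowest arrays were control replicates 1, 4 and 5, and the glial level followed no such order (r = -0.08, rho = -0.09 between the levels). These were also the 3 control arrays with the highest acinar levels, though control replicate 5, at 6.47, lay far below control replicates 1 and 4. The 6 glial genes had a mean pairwise r of -0.04 (0.03 over the 8 arrays without control replicates 1 and 4). The 21 neuronal genes had 0.24 (0.19 over 8 arrays). A flat mean of glial genes that did not vary together does not show how glia as a whole varied. The neuronal level ran against the acinar level (r = -0.72, rho = -0.48, and r = -0.56, rho = -0.05 over the 8 arrays) and with the smooth muscle level (r = 0.74, rho = 0.49, and r = 0.18, rho = 0.10 over the 8 arrays). The part of either tissue in the neuronal level was not tested. Neuronal minus glial level was 0.07 ± 0.06 in the ECP arrays and -0.07 ± 0.22 in the control arrays, a difference of 0.14. The difference was 0.07 without control replicates 1 and 4, 0.08 with the smooth muscle level as a covariate and 0.09 with arrays weighted by their quality. With all arrays, the neuronal minus glial level was above 0 in all 5 ECP arrays and below 0 in 4 of 5 control arrays, with control replicate 2 the highest of all at 0.30. The difference of 0.14 lay within the spread of the control arrays and was given no test, since the members were chosen with results of these arrays known. The median difference of the 21 neuronal genes was 0.11 with all arrays and 0.03 without control replicates 1 and 4. That median was 0.05 with the smooth muscle level as a covariate and 0.07 with Myh11 as a covariate.

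**Figure D4:**
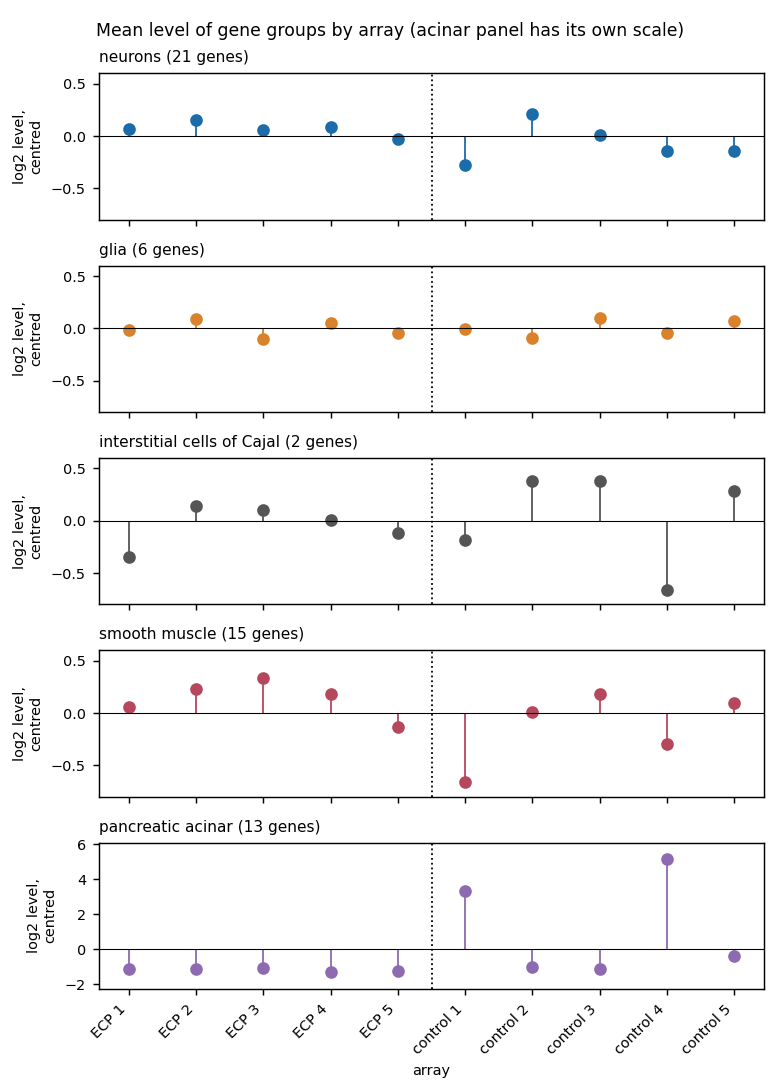
Mean centred log2 level of 5 gene groups on each array (horizontal axis, ECP left of the dotted line, control right), with the acinar panel on its own scale. The neuronal level is lowest in control replicate 1 at -0.28, smooth muscle is lowest there too at -0.66, the glial level stays between -0.10 and 0.10, and the Kit and Ano1 level is lowest in control replicate 4 at -0.66.

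The 2 markers of interstitial cells of Cajal followed a different order. Kit, a receptor kinase, was at 8.74, 9.17, 9.19, 9.30 and 9.24 in ECP replicates 1 to 5, against 8.96, 9.30, 9.47, 8.49 and 9.32 in control replicates 1 to 5. Ano1 measured 9.98, 10.54, 10.43, 10.14 and 9.94 on the ECP arrays, against 10.10, 10.89, 10.72, 9.60 and 10.65 in the control arrays. Both were lowest in control replicate 4 and high in control replicates 2, 3 and 5, and with all 10 arrays the groups overlapped. In control replicates 2, 3 and 5 Ano1 was at 10.65 to 10.89, against 9.94 to 10.54 in the ECP arrays. Kit was at 9.30 to 9.47 there, against 8.74 to 9.30 in the ECP arrays. The differences were 0.02 (SE 0.17) for Kit and -0.18 (SE 0.22) for Ano1. Without control replicates 1 and 4 they were -0.24 for Kit and -0.54 for Ano1 (limma adjusted p = 0.796 and 0.50). The 2 genes varied together over the 10 arrays (r = 0.78, rho = 0.71), and less so over 8 (r = 0.58, rho = 0.52).

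Both genes are made by other cells as well, Kit by mast cells and Ano1 by some epithelial cells. Kit did not vary with mast cell genes in the same direction (r = -0.63, rho = -0.58, and r = -0.46, rho = -0.26 over 8 arrays, with the mean of 9 genes, whose level was 5.43 to 5.74 in the ECP arrays and 5.61 to 5.76 in the control arrays). It varied with the mean of 10 enteroendocrine genes (r = 0.88, rho = 0.75, and r = 0.66, rho = 0.52 over 8 arrays), whose level was 7.44 to 8.02 in the ECP arrays and 6.83 to 8.02 in the control arrays. Ano1 did so too (r = 0.88, rho = 0.87, and r = 0.83, rho = 0.81 over 8 arrays). With the 12 epithelial genes, Ano1 had r = 0.75 and rho = 0.68 (0.58 and 0.55 over 8 arrays) and Kit had r = 0.80 and rho = 0.58 (0.48 and 0.45 over 8 arrays). Their mean level was 12.28 to 12.37 in the ECP arrays and 12.13 to 12.39 in the control arrays. Kit ran against the mean of 8 B cell genes (r = -0.89, rho = -0.71, and r = -0.86, rho = -0.43 over 8 arrays), whose level was 5.92 to 7.03 in the ECP arrays and 6.07 to 8.57 in the control arrays. These correlations share the arrays and their normalisation, and the part of other cell types in the Kit and Ano1 values was not tested.

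Across arrays the members were compared with Myh11, the heavy chain of smooth muscle myosin. Myh11 was at 10.60, 10.64, 10.77, 10.66 and 10.30 in ECP replicates 1 to 5, against 9.86, 10.42, 10.70, 10.27 and 10.59 in control replicates 1 to 5, and the estimate of 0.23 had an SE of 0.15 (limma, adjusted p = 0.998). It was 0.02 without control replicates 1 and 4. The 2 arrays farthest from its median were control replicates 1 and 4. Over 10 arrays 8 of 35 members had r of 0.6 or more with Myh11, all but 1 of them neuronal genes, where 10.1% of all genes did. They were Ncam1 and Prph with r = 0.75, Vip with 0.66, Snap25 and Nefm with 0.64, and Syt1, Stmn2 and Calb2 with 0.61. Ret and Foxd3 ran the other way, at -0.75 and -0.69. Without control replicates 1 and 4 these were -0.24 for Ret and -0.18 for Foxd3, and Ncam1 had 0.19. Without control replicates 1 and 4, 2 of 35 members had r of 0.6 or more, against 5.58% of all genes. These were Snap25 with r = 0.81 and Slc18a3 with 0.78, while S100b lay just under the limit at 0.60 and Prph had 0.57.

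The relation to muscle rested on control replicates 1 and 4 for several neuronal genes. Stmn2 had r = 0.61 and rho = 0.56 over 10 arrays and r = 0.03 over 8, Nefm r = 0.64 and rho = 0.12 over 10 and r = -0.57 over 8, and Calb2 r = 0.61 and rho = 0.21 over 10 and r = -0.25 over 8. Among 15 smooth muscle genes, Myh11 included, 15 had r of 0.6 or more over 10 arrays and 13 over 8. The median r with Myh11 over the 8 arrays was 0.03 for the members, 0.80 for the smooth muscle genes and -0.01 for all genes. In a limma fit of each gene on Myh11 with a term for the group, 0 of 35 members passed the threshold after adjustment over all genes, 8 of 35 had an unadjusted p under 0.05, and the smallest adjusted p among members was 0.214, for Ncam1 (slope 0.89). Of all genes 0.164% passed it and 12.1% had an unadjusted p under 0.05, and 9 of the 14 other smooth muscle genes passed. Without control replicate 1, without control replicates 1 and 4, or with the replicate number as a block, 0 genes passed, so the calls of the muscle genes were lost too. By a permutation test of r over all 19504 genes, an addition made after the data were seen, the values were p = 0.00915 for Prph (adjusted p = 0.269), p = 0.0134 for Ret (adjusted p = 0.28) and p = 0.0169 for Ncam1 (adjusted p = 0.296), and no member passed.

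**Figure D5:**
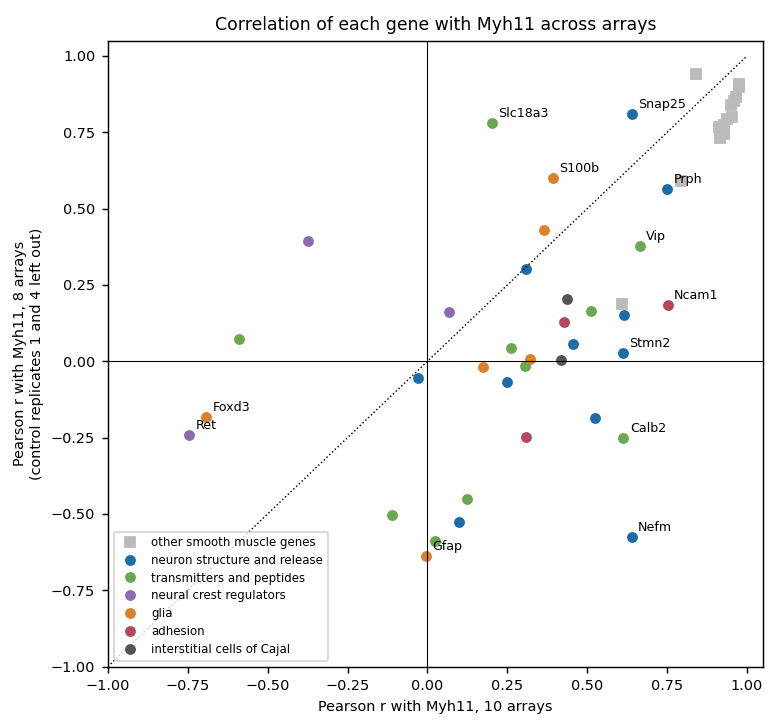
Pearson r of each gene with Myh11 over 10 arrays (horizontal axis) and over the 8 arrays left without control replicates 1 and 4 (vertical axis), with circles for the 35 genes by role, squares for other smooth muscle genes and a dotted line of equality. Most muscle genes stay near the upper right corner, while Nefm, Calb2, Stmn2 and Ncam1 lie far below the line and Snap25 stays high on both axes.

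For each gene the lowest of the 10 arrays was also counted. Of 21 neuronal genes, 6 were lowest in control replicate 1 (28.6%, against 18.4% of all genes), 7 in control replicate 4 (33.3%, against 20.4%) and 4 in control replicate 5 (19.0%, against 7.79%). Of 15 smooth muscle genes, 13 were lowest in control replicate 1 and 0 in control replicate 5. The 4 genes lowest in control replicate 5 were Elavl3, Elavl4, Nos1 and Penk, beside a Myh11 level of 10.59 there, within the range of the ECP arrays. Both control replicates 1 and 4 were also more often the lowest array among genes of any kind, and the highest for 15.9% and 15.7% of all genes.

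The members were also compared with each other. Of 595 pairs of members, 69 (11.6%) had r of 0.6 or more over 10 arrays, where 5.26% of all pairs of genes did. Over the 8 arrays the numbers were 52 (8.74%) and 6.29%. Among the 11 structure and release genes, 14 of 55 pairs reached it (25.5%), or 11 (20%) over 8 arrays. The highest pair was Uchl1 with Stmn2 (r = 0.90, rho = 0.81, and r = 0.81, rho = 0.64 over 8 arrays). Syt1 and Stmn2 had r = 0.85 and rho = 0.87, or 0.82 and 0.88 over 8 arrays, and Nos1 and Penk had r = 0.81 and rho = 0.92, or 0.81 and 0.90 over 8 arrays. Genes of shared function did not always vary together. The cholinergic partners Chat and Slc18a3 had r = 0.47 and rho = 0.49, Nefl and Nefm r = 0.22 and rho = 0.26, and Th and Dbh r = -0.03 and rho = 0.31. Pairs share the arrays, and these values describe 10 arrays.

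Other genes of the enteric nervous system were set beside the members. Of 18 measured further genes of neuronal structure and release, 14 were higher (77.8%, against 53.3% of all genes) and 4 lower. Their median difference was 0.20, and 0 passed the threshold. At an unadjusted p under 0.05 there were 6 of 18 (33.3%), all higher in the ECP arrays. Of all genes 5.08% lay under that value, 2.31% with a higher ECP value. These shares are for all 10 arrays without a covariate. The 6 genes became 4 without control replicates 1 and 4 and 2 with Myh11 as a covariate. Rtn1, a reticulon of neuroendocrine cells and neurons, measured 7.65, 7.75, 7.39, 7.84 and 7.23 on the ECP arrays, against 5.90, 7.56, 6.91, 7.0 and 7.04 on the control arrays, and the estimate of 0.69 had an SE of 0.25 (limma, adjusted p = 0.832). Without control replicate 1 it was 0.45. Dpysl3, a protein gene of growing axons, measured 8.43, 8.56, 8.30, 8.61 and 8.41 on the ECP arrays, against 7.98, 8.23, 8.30, 7.82 and 8.28 on the control arrays. Its groups met without overlapping, and its difference was 0.34 (SE 0.10, adjusted p = 0.677), or 0.19 without control replicates 1 and 4. Syt4, a vesicle protein gene, differed by 0.38 (SE 0.15), or 0.58 without them.

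Among 14 receptor genes of enteric neurons, 10 were higher (71.4%) and 4 lower, 3 had an unadjusted p under 0.05 (21.4%) and 0 passed. Of all genes 53.3% were higher and 5.08% had such a p. Chrna3, a subunit of the nicotinic acetylcholine receptor that carries fast transmission between enteric neurons, was at 6.63, 6.96, 6.47, 6.76 and 6.55 in ECP replicates 1 to 5, against 5.48, 6.60, 6.23, 5.74 and 6.25 in control replicates 1 to 5. Control replicate 2 alone lay inside the ECP range. The difference was 0.61 (SE 0.19, limma adjusted p = 0.658). It was 0.47 without control replicate 1 and 0.32 without control replicates 1 and 4. Htr3a, a subunit of a serotonin-gated ion channel, differed by 0.30 (SE 0.08, adjusted p = 0.470), and the cannabinoid receptor gene Cnr1 by 0.39 (SE 0.14, adjusted p = 0.822).

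The remaining lists had smaller shares under an unadjusted p of 0.05, where all genes had 5.08%, and 53.3% of all genes were higher. Of 17 further transmitter and peptide genes 12 were higher (70.6%) and 5 lower. Under an unadjusted p of 0.05 was 1 (5.88%), the peptide gene Adcyap1 at -0.38 (SE 0.15). Pdyn differed by 0.18 (SE 0.10) and Nxph2 by -0.12 (SE 0.07). Of 12 further neural crest genes 10 were higher (83.3%) and 2 lower, with 1 (8.33%) under an unadjusted p of 0.05. Gdnf, the ligand of the Ret complex, was at 0.27 (SE 0.10, adjusted p = 0.831). The related ligand Nrtn was at -0.18 (SE 0.12), or -0.05 without control replicates 1 and 4, and Ece1 at 0.08. Of 15 further glial genes 9 were higher (60%) and 6 lower with a median of 0.04, none of them under an unadjusted p of 0.05. The transcription factor genes Sox2 and Sox8 differed by 0.21 (SE 0.14) and 0.26 (SE 0.17), and Ngfr, a neurotrophin receptor of glia, by 0.13 (SE 0.09). Of 5 further genes of interstitial and related cells 3 were higher (60%) and 2 lower. Thbs4 was lower, at -0.24 (-0.32 to -0.15 over left-out arrays), and P2ry1 higher, at 0.16 (0.05 to 0.25). Etv1, a transcription factor of interstitial cells of Cajal, was at 0.30 (SE 0.18), or 0.12 without control replicates 1 and 4. In no list did a gene pass the threshold in either direction.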

How the data were processed

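Total RNA was measured on 10 single-colour arrays, and the deposited table held 22203 probe sets. Its values are log2 intensities for which the submitters' processing notes name oligo and RMA, run by the authors, with versions not given there. RMA usually includes quantile normalisation, which hides a change shared by most genes, and no per-array precision is given, so the 5 arrays per group limit it. Array medians were 6.94 to 6.98 and correlations between arrays 0.977 to 0.996.

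Probe sets were named through the platform annotation and RefSeq gene identifiers (19572 named, 2631 unnamed). No measured member had several probe sets. Groups came from the titles. ECP minus control, and slopes on Myh11 with a group term, were fitted with limma 3.58.1 in R 4.3.3 (lmFit, eBayes, two-sided, Benjamini-Hochberg over all genes, threshold 0.05, no filter, no covariate in the first), and both fits were checked on simulated arrays. Since the labels do not say that the samples are separate mice, p-values measure only the spread between these samples, which may be technical. Levels and correlations got no test, except 20000 permutations of r and rho with Myh11. All members, up to 3 genes of smallest p in each further neural list, and Myh11 were named. Members, lists and alternatives were chosen with earlier results of these data known. Alternatives covered normalisation, dim genes, probe sets, spread estimate, array weights, the replicate number, left-out arrays and muscle covariates.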

Additional observations from a re-analysis of the deposited data

Results flagged for a closer look

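For 118 sets of 5 arrays (a gene or mean level in one group), the lowest and highest arrays were set against the rest, and 2 sets held a single array whose distance from the next took up more than 0.71 of the whole range, where chance gives about 6. Kit was low in ECP replicate 1, at 8.74 with the next value at 9.17, and without that array its ECP minus control value was 0.12 in place of 0.02. Sox10 was low in ECP replicate 3, at 5.46 with the next value at 5.61.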

How the results depend on the processing

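Of 679 values of ECP minus control for the members under alternatives, 0 passed the threshold and 82 had the opposite sign, in 18 members with small differences. Ncam2, Uchl1, Penk, Stmn2, Snap25 and Elavl4 kept a positive sign under every alternative run. The adjusted p of Ncam2 ranged from 0.0679 (trend and robust options) to 0.429 (replicate block), and the block changed no call of ECP minus control. Same-numbered arrays did not deviate together (r = -0.244 to 0.076), so the numbers were not taken as pairs. Genes called numbered 7 with the dimmer genes dropped (those under the median level, Ncam2 and Uchl1 among them), where fewer genes are tested, and 1 with trend and robust options, none of them members. It was 0 to 1 over left-out arrays, with 1 without control replicate 3. Members with an unadjusted p under 0.05 numbered 1 among the brighter genes alone, 1 with Myh11 as a covariate, and 2 to 6 over left-out arrays. Further structure and release genes under that value numbered 2 with either muscle covariate and 3 to 7 over left-out arrays. The neuronal median ranged from 0.06 to 0.21 and the neuronal minus glial difference from 0.10 to 0.24 over left-out arrays. That difference was 0.07 without control replicates 1 and 4 together. With array weights the sign turned for Nefl (-0.03), Nefm (-0.05), Gap43 (0), Vip (-0.02), Th (-0.02), Ret (0.01), Sox10 (-0.01), Gfap (0), Erbb3 (-0.03), Ncam1 (-0.03), L1cam (-0.03) and Kit (-0.10). Without control replicates 1 and 4 the sign turned for Nefl (-0.07), Nefm (-0.18), Gap43 (-0.03), Vip (-0.13), Th (-0.03), Ret (0.05), Sox10 (-0.03), Gfap (0), Foxd3 (0.03), Erbb3 (-0.11), Ncam1 (-0.14), L1cam (-0.06) and Kit (-0.24). With the smooth muscle level as a covariate the sign turned for Nefl (-0.03), Nefm (-0.10), Vip (-0.28), Ret (0.04), Sox10 (-0.01), Cdh19 (-0.06), Erbb3 (-0.04), Ncam1 (-0.13), L1cam (-0.04) and Kit (-0.15). With Myh11 as a covariate the sign turned for Nefm (-0.05), Vip (-0.26), Ret (0.03), Sox10 (-0.01), Cdh19 (-0.09), Erbb3 (0), Ncam1 (-0.11), L1cam (-0.02) and Kit (-0.10). With median centring the sign turned for Nefl (0) and L1cam (0). With renewed quantile normalisation the sign turned for L1cam (-0.01). Leaving out single arrays turned the sign of these genes, with the lowest and highest difference, Nefl (-0.10 to 0.09), Nefm (-0.02 to 0.20), Gap43 (-0.01 to 0.16), Slc18a3 (-0.10 to 0), Vip (-0.25 to 0.27), Th (-0.02 to 0.12), Dbh (-0.21 to 0.02), Ret (-0.08 to 0.01), Hand2 (-0.01 to 0.09), S100b (-0.11 to 0.04), Sox10 (-0.01 to 0.06), Gfap (0 to 0.09), Cdh19 (-0.10 to 0.12), Erbb3 (-0.10 to 0.12), Ncam1 (-0.05 to 0.21), L1cam (-0.03 to 0.04) and Kit (-0.14 to 0.12). Genes called for the slope on Myh11 numbered 32, against 63 without the group term, 0 without control replicates 1 and 4, 0 with the replicate block, and 0 to 80 over left-out arrays (0 without control replicate 1, 80 without control replicate 4). Members with r of 0.6 or more numbered 2 without both arrays and 2 to 10 over left-out arrays. Without both arrays the slope turned to -0.47 for Nefm and -0.30 for Calb2. The cause of these shifts was not tested. Many members lie below the median level of all genes, and small differences of weak probe sets could not be seen with 5 arrays per group.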
